A study of Mus musculus with 5 samples.

Results

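Messenger RNA of 10 peptide hormones of the gut, Gcg, Cck, Gip, Sct, Nts, Pyy, Sst, Ghrl, Insl5 and Tac1, was followed cell by cell along the mouse intestine. The genes were listed by symbol, and each symbol was found once among the 32285 genes of the deposited count matrices. The hormone cells were taken to be those with at least 5 UMIs (unique molecular identifiers, each standing for 1 captured transcript) of Chga and Chgb together. These genes encode chromogranin A and chromogranin B, which are stored with hormones in secretory granules. Of 11922 cells kept, 141 passed this gate. A gated cell is said below to hold a hormone when it had at least 5 of its UMIs.

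Single cells of mouse duodenum, jejunum, ileum, colon and rectum were captured by droplet on the 10x Genomics platform, with 1 library per segment and so no replicate of any segment. The labels give the contents of all 5 libraries as epithelial, mesenchymal and immune cells. Cells had been stained with propidium iodide, a marker of dead cells, at 5 µg/ml, and the unstained ones were sorted. No treatment is named, and strain, age, sex and the number of animals behind a library are not given in the sources used here.

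Enteroendocrine cells are scattered hormone-secreting cells of the gut lining that arise from crypt stem cells through the transcription factors Neurog3 and Neurod1. They sense luminal nutrients and microbial products and release peptides to blood, nerves and neighbouring cells. By tradition they are classed by their main product: X cells (ghrelin), I cells (cholecystokinin), S cells (secretin), K cells (gastric inhibitory polypeptide), D cells (somatostatin), L cells (glucagon-like peptides and peptide YY), N cells (neurotensin) and enterochromaffin cells (serotonin, often with tachykinins).

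The bases just before the start sites of 7 of the genes are shown, since the results turn on which of these hormones the same cells held. Gcg, Cck, Nts, Pyy and Insl5 were held together by colonic cells, and Sct and Tac1 were held most often. The sequences are the 200 bases before the most upstream listed start, from RefSeq on GRCm38.p6, read 5′ to 3′ on the strand of the gene, with every match to CANNTG (an E-box, the motif of bHLH factors such as Neurod1, whose reverse complement is the same motif) in capitals. They lie at chr2:62483654-62483853 for Gcg, chr9:121495695-121495894 for Cck, chr10:102490419-102490618 for Nts, chr11:102107833-102108032 for Pyy, chr4:103027272-103027471 for Insl5, chr7:141279134-141279333 for Sct and chr6:7554861-7555060 for Tac1. The Tac1 stretch is on the plus strand and the others on the minus strand. For Sct the start used lies inside the range listed for the gene, chr7:141278329-141279174, so the printed stretch overlaps that range. The other 3 genes lie at chr11:96024532-96030831 (Gip), chr16:23889573-23891342 (Sst) and chr6:113716119-113719911 (Ghrl). The starts used for Gip and Sst in the search below also lie inside these ranges.
Gcg: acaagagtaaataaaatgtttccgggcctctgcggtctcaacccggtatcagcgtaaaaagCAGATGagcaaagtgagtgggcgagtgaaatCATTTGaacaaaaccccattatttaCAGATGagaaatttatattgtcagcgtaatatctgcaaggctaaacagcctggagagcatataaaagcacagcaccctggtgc
Cck: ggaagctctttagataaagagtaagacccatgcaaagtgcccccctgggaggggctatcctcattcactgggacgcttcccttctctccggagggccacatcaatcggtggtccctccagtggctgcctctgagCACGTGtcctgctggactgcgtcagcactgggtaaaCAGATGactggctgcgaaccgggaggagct
Nts: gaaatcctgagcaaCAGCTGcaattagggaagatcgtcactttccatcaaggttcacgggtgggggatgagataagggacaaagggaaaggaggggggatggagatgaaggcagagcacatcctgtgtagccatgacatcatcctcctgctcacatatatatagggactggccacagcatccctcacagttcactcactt
Pyy: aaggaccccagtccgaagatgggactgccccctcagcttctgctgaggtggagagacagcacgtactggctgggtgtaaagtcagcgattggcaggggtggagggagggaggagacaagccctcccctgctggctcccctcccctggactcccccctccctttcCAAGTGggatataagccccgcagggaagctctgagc
Insl5: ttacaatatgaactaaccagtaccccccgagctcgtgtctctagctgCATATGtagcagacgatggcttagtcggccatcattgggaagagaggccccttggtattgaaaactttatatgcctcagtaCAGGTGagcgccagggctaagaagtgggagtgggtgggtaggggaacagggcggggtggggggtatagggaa
Sct: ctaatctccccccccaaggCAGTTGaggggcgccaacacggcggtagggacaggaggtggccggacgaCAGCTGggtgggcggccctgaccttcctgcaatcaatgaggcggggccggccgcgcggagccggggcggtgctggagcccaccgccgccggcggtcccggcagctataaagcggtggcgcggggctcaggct
Tac1: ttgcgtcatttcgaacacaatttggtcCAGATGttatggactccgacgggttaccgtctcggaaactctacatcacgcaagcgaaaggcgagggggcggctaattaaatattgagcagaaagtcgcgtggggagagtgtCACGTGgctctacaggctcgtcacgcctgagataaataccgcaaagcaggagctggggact
A search for 6 short motifs was made on both strands in the 250 bases before the start of each gene, and of all 27025 genes with a listed start. CANNTG was present before all 10 hormone genes and before 66.05% of all genes. TGACGTCA, the full cAMP response element, was found only before Sst, and before 1.599% of all genes. Its shorter form TGACG, which lies within it, was found before Cck, Nts, Sst and Tac1, and before 17.8% of all genes. TATAAA was found before Gcg, Sct and Insl5 (12.98% of all genes), AGATAA before Cck, Gip, Nts and Tac1 (10.23%) and TAATTA before Tac1 alone (4.91%). Of these motifs only CANNTG was found before all 5 genes held together in colon. A match is a run of letters and not a bound site.

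The libraries held 2884 to 4355 barcodes and 41953568 to 65546664 UMIs. Between 1829 and 3196 cells a library were kept, with median UMIs per cell from 5059 in duodenum to 9767 in jejunum. Of the kept barcodes, 15 sequences occurred in more than 1 library, and no gated barcode did. Gated cells numbered 25 in duodenum, 8 in jejunum, 43 in ileum, 49 in colon and 16 in rectum, and segments follow each other so in every series of 5 values. Those were 0.782, 0.437, 1.75, 2.28 and 0.697% of the kept cells and 1.18% of all kept cells (exact 95% binomial interval 0.996 to 1.39%). Intervals here cover counting error only, and since each segment is 1 library, a difference between segments has no replicate check.

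The gate was checked against enteroendocrine and other markers. Cells outside it with a UMI of the epithelial gene Epcam and none of the leukocyte gene Ptprc are called other epithelial cells, and those with Ptprc and no Epcam immune-marker cells. The 8 other genes of the enteroendocrine list, without Chga and Chgb and with Neurod1, Pax6 and Insm1 among them, summed to 539 to 2042 CPM (the UMIs of a gene scaled to an equal total for each group of cells) in gated cells, against 1.57 to 8.57 CPM in other epithelial cells and 0.269 to 2.81 CPM in immune-marker cells. Epcam had a UMI in 138 of the 141 gated cells. Ptprc had a UMI in 13 gated cells, the B cell gene Cd79a in 15, and the goblet mucin Muc2 reached 10 UMIs in 17, of which 12 were colonic. The 6 immune genes summed to 171 to 3702 CPM in gated cells, 739 to 5230 CPM in other epithelial cells and 19265 to 33363 CPM in immune-marker cells. Without the gated cells that had a Ptprc or Cd79a UMI, all 10 hormones kept the same highest segment. The number of hormone pairs held together stayed at 30, and some levels moved, such as Sct in jejunum from 979 to 1585 CPM. The part of the immune genes in the hormone levels was not tested further. The 8 enteric neuron genes summed to 67.9 to 425 CPM in gated cells and 0.535 to 2.38 CPM in other epithelial cells, led by Snap25, a vesicle fusion protein, with 390 UMIs in 95 gated cells. Of the gated cells 6 had at least 4 of the 8, against 0 of the ungated, and Prph had no UMI in any gated cell. Their part in the hormone levels was not tested. The ileal gate went against its name, and so did part of the jejunal one. Of its 43 cells, 24 had only 5 to 19 UMIs of Chga and Chgb, with 147 UMIs of Chga against 26 of Chgb, and of these 24 cells 0 had a Neurod1 UMI and 1 held a hormone. In jejunum 2 of the 8 gated cells were in this range, with 11 UMIs of Chga and 0 of Chgb, and 0 of them had Neurod1 or held a hormone. With the gate at 10 UMIs, which leaves these out, jejunal Sct was 1405 CPM. The 9 colonic cells in the same range all had Neurod1 and 6 held a hormone. Among the 102 cells of all segments with 20 or more such UMIs, 96 had Neurod1 and 83 held a hormone. Ileal and jejunal shares of gated cells are therefore given per gate and not per enteroendocrine cell.

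**Figure D1:**
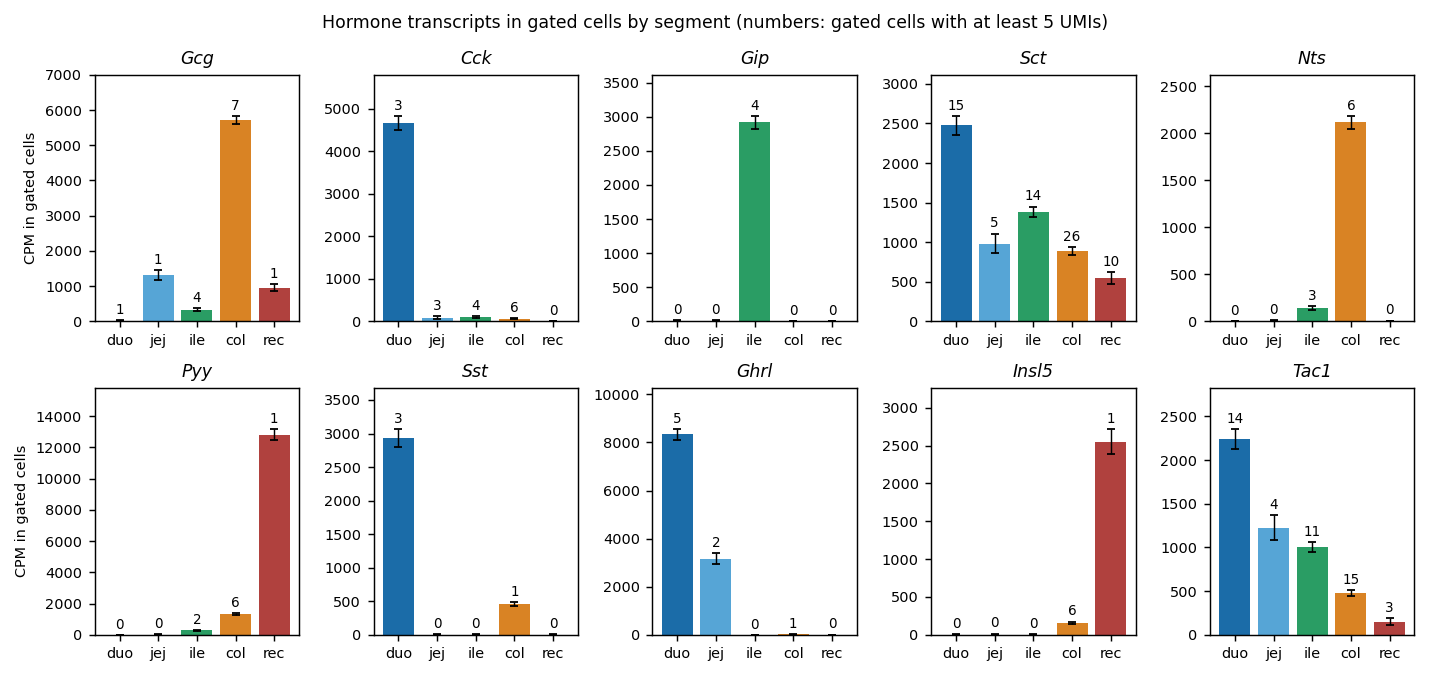
Level of each hormone in the gated cells of the 5 libraries, as CPM of their summed UMIs on a linear axis of its own, with 95% exact Poisson intervals and, above each bar, the number of cells with at least 5 UMIs. Ghrl and Cck are highest in duodenum, Gip in ileum, Gcg and Nts in colon, and Pyy and Insl5 in rectum, and Gcg, Sct and Tac1 were held in every segment.

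The segment with the highest level differed between the hormones. Ghrl, Cck and Sst had their highest gated level in duodenum and Gip in ileum, whereas Gcg and Nts were highest in colon, and Pyy and Insl5 in rectum. Sct and Tac1 were held by the most cells, 70 and 47 of 141, and like Gcg they were held in all 5 segments. Many of the levels rest on a few cells with large UMI counts, so that the number of holding cells and the largest cell are given beside each level.

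Ghrl encodes ghrelin, the acylated hormone of hunger. Its summed gated UMIs were 5567, 806, 0, 20 and 0, or 8340, 3158, 0, 12.2 and 0 CPM. Upper small intestine stood above the rest, with 5 holding cells in duodenum and 2 in jejunum, against 1 in colon that had 19 Ghrl UMIs among 75 of Tac1. The duodenal level came mainly from 2 cells with 2320 and 2276 UMIs. These 2 cells had 37 and 32 UMIs of Sct and none of the other 8 hormones. By the mean over cells, each scaled to its own total, jejunum (5747 CPM) lay above duodenum (5410 CPM).

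Cck encodes cholecystokinin, which contracts the gallbladder and limits meal size. It had 3118, 22, 126, 107 and 0 gated UMIs, or 4671, 86.2, 101, 65.5 and 0 CPM. Duodenum stood far above the others, but 97.2% of its UMIs came from a single cell with 3030, which also had 457 of Ghrl, 196 of Sct and 15 of Gcg. By cells the order was different, with 3, 3, 4, 6 and 0 cells holding Cck. The jejunal interval, 54.0 to 130 CPM, overlapped those of ileum and colon.

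Sst encodes somatostatin, the inhibitor of most other gut hormones. It had 1959, 0, 1, 748 and 0 gated UMIs, or 2935, 0, 0.799, 458 and 0 CPM. Each of the 2 higher levels was in effect 1 cell, of 1945 UMIs in duodenum and of 748 in colon. The duodenal cell also had 51 Tac1 and 70 Tph1 UMIs, and the colonic cell had 921 UMIs of Muc2. The other 2 cells holding Sst were duodenal, with 6 and 8 UMIs among 717 and 1002 in all.

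Gip encodes gastric inhibitory polypeptide, an incretin that raises insulin release after a meal. It had 7, 0, 3651, 0 and 0 gated UMIs, or 10.5, 0, 2918, 0 and 0 CPM. The ileal level came from 4 cells with 1438, 884, 793 and 531 UMIs, all of which also held Cck and Sct, and 3 of which held Gcg. In duodenum no kept gated cell held Gip. However, 2 duodenal barcodes that passed the gate had 537 and 599 Gip UMIs and were dropped for 20.1 and 22.9% mitochondrial UMIs, against a limit of 20%. That no duodenal cell held Gip therefore rests on that filter.

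Gcg encodes proglucagon, which gut cells process to glucagon-like peptides 1 and 2. It had 15, 335, 422, 9352 and 354 gated UMIs, or 22.5, 1313, 337, 5722 and 952 CPM. Colon was highest and duodenum lowest, and the 5 intervals did not overlap each other. The holding cells numbered 1, 1, 4, 7 and 1, and 4 of the colonic ones had 2714, 2522, 2278 and 1193 UMIs. The jejunal cell, with 335 Gcg UMIs, had 561 of Ghrl.

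Pyy encodes peptide YY, which slows gut transit and curbs appetite. It had 0, 1, 347, 2151 and 4761 gated UMIs, or 0, 3.92, 277, 1316 and 12810 CPM. The level was higher in each segment from jejunum to rectum. The rectal value was 4760 UMIs of a single cell, whereas 6 colonic cells held Pyy with 17 to 572 UMIs each. That rectal cell also had 154 UMIs of Muc2, and the part of this in the level was not tested.

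Insl5 encodes insulin-like peptide 5, a hormone of the hindgut that acts on the receptor Rxfp4. It had 0, 0, 2, 253 and 948 gated UMIs, or 0, 0, 1.60, 155 and 2551 CPM. All 6 colonic cells that held it also held Pyy, with 7 to 68 Insl5 UMIs, and the single rectal one was the Pyy cell, with 947. Zero UMIs in duodenum and jejunum allow up to 5.53 and 14.5 CPM.

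Nts encodes neurotensin, which is released by dietary fat. It had 0, 0, 179, 3455 and 0 gated UMIs, or 0, 0, 143, 2114 and 0 CPM. Colon was highest, where 6 cells held it and a single cell had 2826 of the UMIs. By the mean over cells ileum was highest instead (1995 against 1544 CPM in colon). In ileum 160 of the 179 UMIs lay in a cell of 1884 UMIs in all, and the other 2 holding cells were Gip cells.

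Sct encodes secretin, which stimulates bicarbonate secretion from the pancreas. It had 1653, 250, 1732, 1454 and 203 gated UMIs, or 2476, 979, 1384, 890 and 546 CPM. Duodenum was highest and rectum lowest, and the intervals of jejunum (862 to 1109 CPM) and colon (844 to 937 CPM) overlapped. Ileum was highest instead with the gate at 10 UMIs of Chga and Chgb (3132 against 2476 CPM in duodenum), with doublets put back (2113 against 2089 CPM) and by the mean over cells (3430 against 2663 CPM). The holding cells numbered 15, 5, 14, 26 and 10, and the largest had 735 UMIs, in ileum.

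Tac1 encodes the precursor of substance P and neurokinin A and is known in gut epithelium from enterochromaffin cells. It had 1495, 312, 1255, 780 and 55 gated UMIs, or 2240, 1222, 1003, 477 and 148 CPM. The level was lower in each segment than in the one before it, with intervals that did not overlap. With the gate at 10 UMIs of Chga and Chgb this order did not hold, and ileum (2290 CPM) lay above jejunum (1753 CPM) and duodenum (2240 CPM). The holding cells numbered 14, 4, 11, 15 and 3, and the largest had 358 UMIs, in duodenum.

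**Figure D2:**
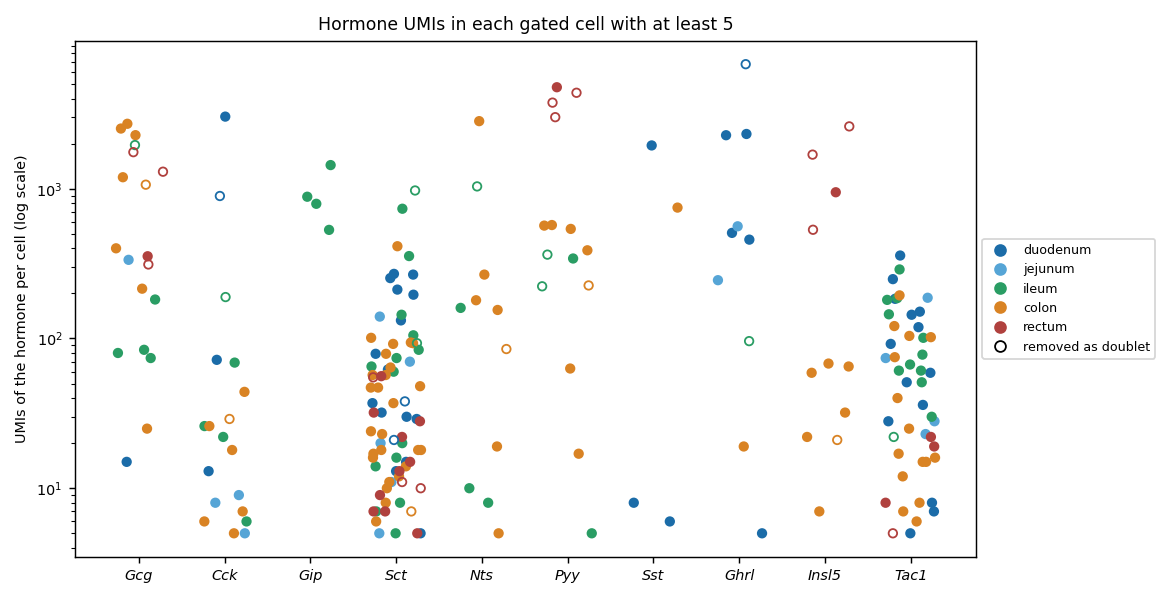
UMIs of each hormone in every gated cell that held it, on a log axis, with 1 point per cell, 1 colour per segment and open points for cells removed by doublet score. Ghrl, Gcg, Pyy, Nts, Gip, Sst and Cck each have a few cells far above the rest, up to 4760 UMIs of Pyy among kept cells, whereas Tac1 cells stay at or below 358.

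The removal of suspected doublets took out some of the richest hormone cells. Of 178 deposited barcodes that passed the gate, 24 failed the filter on genes and mitochondrial UMIs and 13 were removed by doublet score. Among the 13 were 3 rectal cells with 4372, 3757 and 3004 UMIs of Pyy, with 2607, 532 and 1689 of Insl5 and with 1299, 312 and 1754 of Gcg. These 3 cells had at most 1 Muc2 UMI and none of Ptprc or Cd79a. With doublets put back, rectal Pyy came to 25172 CPM in 4 holding cells, rectal Insl5 to 9148 CPM and rectal Gcg to 5890 CPM, with an interval that overlapped that of colon at 6092 CPM. A duodenal cell with 6784 Ghrl UMIs, an ileal cell with 1956 Gcg, 363 Pyy and 189 Cck UMIs, and an ileal cell with 1036 Nts and 973 Sct UMIs were removed in the same way. With them, ileum reached 1795 CPM of Gcg and 917 CPM of Nts, and duodenum reached 15064 CPM of Ghrl. Whether these barcodes were doublets was not tested beyond the score.

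Most cells with a hormone UMI lay outside the gate. For Gcg, 271 kept cells had a UMI, of which 17 were gated. Outside the gate 10 cells had at least 10 Gcg UMIs, 1403 in all, and are described further below. In ileum 4.44% of other epithelial cells (median 20097 UMIs) had a Gcg UMI, against 4.11% of immune-marker cells (median 3620.5 UMIs), which should lack the gene. After each cell was thinned to 2000 UMIs the colonic shares were 1.47% of other epithelial cells and 1.70% of immune-marker cells, although the colonic level was 39.6 CPM in other epithelial cells and 6.38 CPM in immune-marker cells. Over all segments the thinned share was lower in other epithelial cells than in immune-marker cells for Gcg, Cck, Gip, Nts, Pyy, Sst, Ghrl and Insl5, from 0.0452% against 0.0501% for Insl5 to 0.497% against 0.677% for Gcg. For Sct it was 7.41% against 0.401%, and for Tac1 0.497% against 0.0501%.

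**Figure D3:**
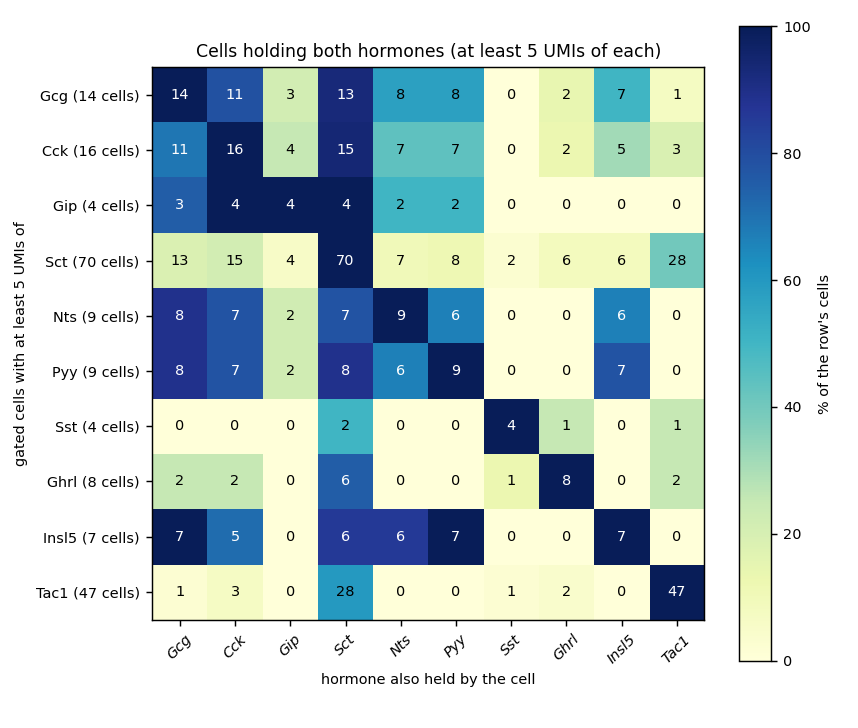
Number of gated cells holding each pair of hormones, with the number holding each hormone on the diagonal, over 141 cells of 5 libraries. Colour gives the percentage of the cells that hold the hormone named at the left. Gcg shares 13 of its 14 cells with Sct and 11 with Cck, and Sct and Tac1 share 28 cells. At the limit of 5 UMIs of each, Tac1 shares none with Nts, Pyy or Insl5.

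Co-detection within cells was common. Of the 141 gated cells, 47 held no hormone, 45 held 1, 32 held 2, 2 held 3 and 15 held 4 or more, up to 6. Of the 45 possible pairs of hormones, 30 were held together by at least 1 cell. Cells of 1 library share its free RNA and its sort, and the pairs are counted over cells and not over animals.

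Most Gcg cells held other hormones as well. Of 14 cells holding Gcg, 13 held Sct, 11 held Cck (78.6%), 8 held Nts, 8 held Pyy and 7 held Insl5, but only 1 held Tac1. From the other side, 11 of the 16 Cck cells and all 7 Insl5 cells held Gcg. In colon 7 cells held at least 1 of Gcg, Cck, Nts, Pyy and Insl5. Of these, 6 held at least 3 and 5 held all 5, the genes whose start regions are printed above.

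The 5 colonic cells with all 5 hormones differed in their leading product. In 4 of them Gcg led, with 2714, 2522, 2278 and 1193 UMIs, against 539, 572, 63 and 567 of Pyy and 155, 267, 19 and 180 of Nts. In the fifth cell Nts led with 2826 UMIs, against 400 of Gcg and 388 of Pyy. Their Insl5 counts ran between 22 and 68 UMIs and their Cck counts between 6 and 44. Muc2 counts in the 5 cells were 2, 4, 1 and 694 in the Gcg-led cells and 1 in the Nts-led cell. The cell with 694 Muc2 UMIs was thus also rich in a goblet gene, and its part in the result was not tested.

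The ileal Gip cells were of a different kind. The cells with 1438, 884 and 793 Gip UMIs had 84, 80 and 74 of Gcg and 69, 22 and 26 of Cck, but at most 5 of Pyy. The cell with 531 Gip UMIs had 342 of Pyy, 735 of Sct and none of Gcg. Muc2 had 178 and 104 UMIs in 2 of these 4 cells.

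**Figure D4:**
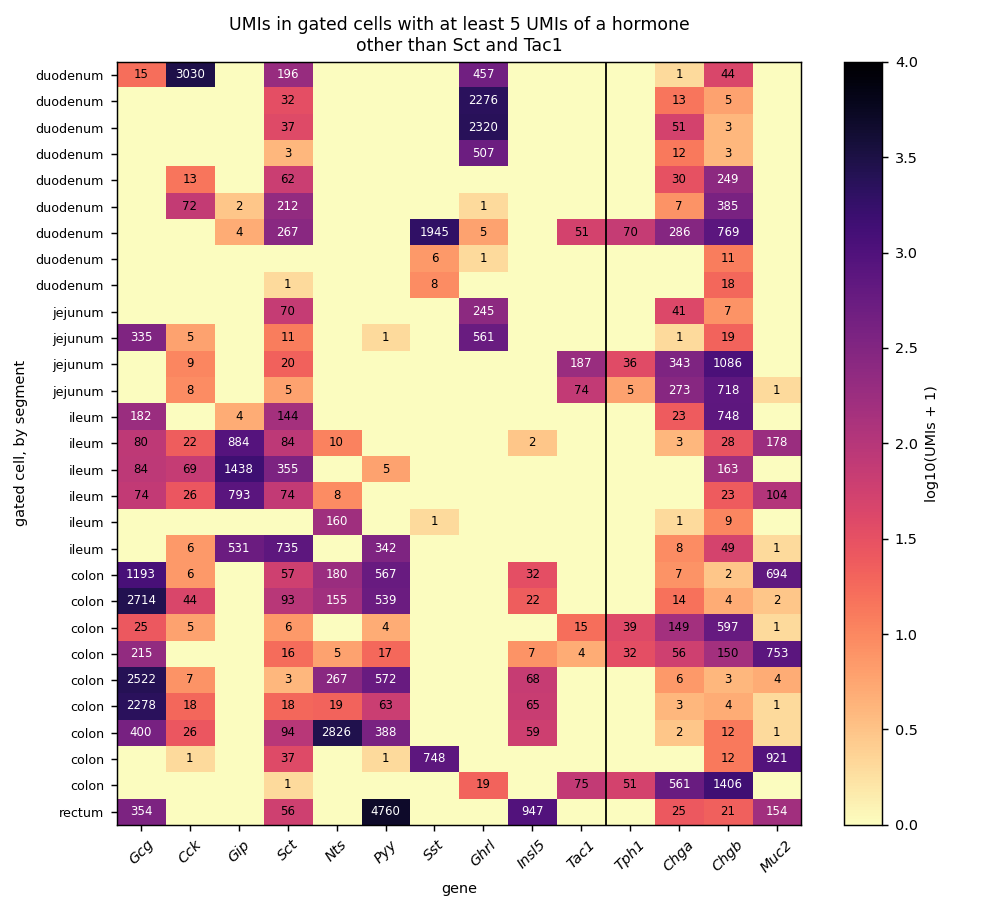
UMIs of the 10 hormones, Tph1, Chga, Chgb and Muc2 in each of the 29 gated cells that held a hormone other than Sct or Tac1, 1 line per cell, with colour by log10 of the UMIs plus 1. The colonic block includes cells with Gcg, Nts, Pyy and Insl5 together. The duodenal and jejunal block includes cells with Ghrl or Cck beside Sct, and also 3 duodenal cells that held Sst.

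Sct and Tac1 formed the most frequent pair, in 28 cells, which are 40% of the Sct cells. They were also the most widely held hormones, by 70 and 47 of all 141 gated cells. Whether the pair was more frequent than these shares alone would give was not tested. Sct was also held by 6 of 8 Ghrl cells, 15 of 16 Cck cells and all 4 Gip cells. At 5 UMIs of each, Tac1 was held by 3 Cck cells and by no Nts, Pyy or Insl5 cell. At 1 UMI of each, 3, 2 and 2 gated cells had Tac1 together with Nts, Pyy and Insl5. A rectal cell removed by doublet score had 5 Tac1, 3004 Pyy and 1689 Insl5 UMIs. Tph1, the enzyme that starts serotonin synthesis in gut, had at least 5 UMIs in 46 of 47 Tac1 cells, against 2 of 14 Gcg cells. The gate itself was filled unequally: Chga and Chgb together had a median of 854 UMIs in Tac1 cells and 27 in Gcg cells. Of the 14 Gcg cells the lowest had 7, near the limit of 5, and a stricter gate therefore removes Gcg, Nts, Pyy and Insl5 cells before Tac1 cells.

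Genes with the most similar pattern were named by Pearson's r of log2 UMIs, scaled to an equal total per cell and with 1 added, over the 141 gated cells, among 10971 genes. These values are descriptions, since cells of a library share its source, and depth differs between cells. For Gcg the closest genes were Ffar1, a receptor for long-chain fatty acids, and Etv1, an ETS transcription factor, both at 0.77, followed by Pyy at 0.72. For Insl5 they were Pyy at 0.85 and Gcg at 0.76. Nts was closest to Etv1 at 0.71. Cck was closest to Scg2, a granin, at 0.72, then to Rbp4, a retinol carrier, at 0.67. Ghrl stood at 0.64 with Mboat4, the enzyme that acylates ghrelin. Gip was closest to Fabp5, a fatty acid binding protein, at 0.74. Tac1 was closest to Rab3c, a vesicle GTPase, at 0.79, then to the prohormone convertase Pcsk1 at 0.75, and Lmx1a, a LIM homeobox gene of enterochromaffin cells, stood at 0.71. Sct reached 0.61 with Syt7, a calcium sensor of exocytosis. Sst reached 0.61 with Arg1 over only 5 cells with a UMI.

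Small and large intestine were set against each other by a rule of size, since the 3 and 2 libraries have no replicates. A gene was called when its lowest gated CPM on one side was at least 4-fold above the highest on the other, with at least 50 gated UMIs. Of 8424 genes, 45 (0.534%) were higher in small intestine and 41 (0.487%) in large intestine. None of the 10 hormones was called for small intestine at these settings. With doublets put back Ghrl was called for it (6.26-fold), and with the gate at 20 UMIs of Chga and Chgb Cck was (15.3-fold). Pyy and Insl5 were called for large intestine. The gap of Pyy was 4.74-fold, with 1316 CPM in colon against 277 CPM in ileum. The gap of Insl5 was 13.2-fold, with colon set against a floor of 3 counts in jejunum, where no UMI was found. With the gate at 10 UMIs of Chga and Chgb both calls were lost (0.964-fold for Pyy and 3.36-fold for Insl5), and with doublets put back the gap of Pyy was 1.97-fold. Tac1 had a gap of 2.10-fold in favour of small intestine, Cck of 1.32-fold and Sct of 1.10-fold. For Gcg, Nts, Gip, Sst and Ghrl the 2 sides overlapped.

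Other genes in the same cells had wider gaps. Of the genes higher in small intestine, Tm4sf5, a tetraspan membrane protein, had a gap of 48.2-fold, and the crypt gene Olfm4 of at least 28.9-fold. Rbp2 (26.4-fold), Mttp (26.2-fold) and Lgals2 (23.4-fold) followed, of which Rbp2 carries retinol and Mttp loads lipoproteins in absorptive cells. Retnlb, a goblet cell lectin, had the widest gap in favour of large intestine at 49.7-fold, before Nupr1, Nrp2, Sycn and Sult1c2 (15.0 to 28.8-fold). Of the lists of related genes, Trpa1, an irritant channel of enterochromaffin cells, was higher in small intestine, with 345, 321 and 40.0 CPM in duodenum, jejunum and ileum and 0 UMIs in colon and rectum. Egr3 was higher in large intestine, with 11, 1, 14, 140 and 90 UMIs. Of the marker lists of other cells, 2 of 7 absorptive genes (Fabp1 and Sis), 1 of 3 Paneth genes (Defa24) and 1 of 4 crypt genes (Olfm4) were higher in small intestine. Egr3 was the single call among 20 enteroendocrine transcription factors, and Trpa1 the single one among 9 serotonin genes and among 8 sensing receptors. No call was made among 17 genes of prohormone processing and granules, 10 enteroendocrine markers, 6 other peptides, 2 hormone receptors, 3 neuron, 5 immune, 5 epithelial and 6 goblet genes, and no glial, mesenchymal, endothelial or tuft gene reached 50 UMIs.

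Cells holding Tac1 were compared with gated cells of the same library without it, in duodenum (14 and 11 cells), ileum (11 and 32) and colon (15 and 34). Counts were summed per side and library and tested by edgeR's quasi-likelihood method, in a model with a library term and with Benjamini-Hochberg adjustment over 6291 genes, without Tac1 itself. The 3 libraries are the units of this test. With the library term, its p-values measure how the difference between the sides varies over these 3 segments, which are not replicates of each other. Gcg was lower in Tac1 cells in 3 of 3 libraries, with 0, 0 and 30 UMIs in Tac1 cells against 15, 422 and 9322 in the others. Its log2 fold change was -7.55 (SE 0.53, edgeR adjusted p = 0.0322). All 15 duodenal UMIs lay in 1 cell, and 25 of the 30 colonic ones in another. Gcg passed the filter on low counts through the side without Tac1. The cells are those of the pair counts above, so the test is no separate support for them. No gene was called higher (0%) and Gcg was the only gene called lower (0.0159%), while 483 genes had an unadjusted p under 0.05 and DESeq2 called 26 higher and 12 lower. The Gcg call was lost when holding was set at 10 or at 1 UMIs of Tac1 (edgeR adjusted p = 0.0628 and 0.0524) with doublets put back (edgeR adjusted p = 0.0760), and without the library term (edgeR adjusted p = 0.700).

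Of the other hormones Cck, Sct and Sst could be tested in this contrast, and none passed. Cck had 3, 3 and 5 UMIs in Tac1 cells against 3115, 123 and 102 in the others, a log2 fold change of -5.97 (SE 1.49, edgeR adjusted p = 0.602). Sct had a log2 fold change of -0.31 (edgeR adjusted p = 0.822) and Sst of -0.28, with an SE of 6.73. Of the 8 serotonin genes tested, 7 were higher in all 3 libraries without passing, and Trpa1 in 2, with no UMI in colon. Tph1 had a log2 fold change of 3.74 (edgeR adjusted p = 0.438) and Lmx1a of 3.71 (edgeR adjusted p = 0.285). These 8 genes had a median log2 fold change of 2.56, against -0.01 over all genes, with 0 called in either direction. None of the members of the other lists was called in either direction. Isl1, a LIM homeobox gene, had a log2 fold change of -3.03 with an edgeR adjusted p of 0.396, and Etv1 of -2.35. The side without Tac1 held absorptive genes too, with Fabp2 at 142, 18308 and 657 UMIs, against 76, 32 and 243 in Tac1 cells. When the gate was raised to 20 UMIs of Chga and Chgb, Tph1 (log2 2.67, edgeR adjusted p = 0.0185) and Lmx1a (log2 2.68, edgeR adjusted p = 0.00281) passed, and the change of Gcg was -4.42 (edgeR adjusted p = 0.0247). That gate leaves out the 24 ileal cells without Neurod1, but also 9 colonic cells, 6 of which held a hormone, and 4 duodenal cells that all held one. The like contrasts for Gcg and Cck were not run, since only colon had at least 5 cells on each side.

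Secretin RNA was also plain outside the gate, in cells rich in mucin. Epithelial cells outside the gate with at least 10 Muc2 UMIs had 211, 158, 319, 378 and 8.22 CPM of Sct, against 7.58, 17.1, 23.2, 33.2 and 2.06 CPM in epithelial cells with fewer. The Muc2-rich cells were thus higher in all 5 libraries, by 27.8, 9.26, 13.8, 11.4 and 3.99-fold. Immune-marker cells of the same libraries had 1.79, 0.538, 4.53, 3.38 and 0 CPM. Shares of cells with a Sct UMI, each thinned to 2000 UMIs, were 40.5, 44.8, 42.7, 28.4 and 3.43% in Muc2-rich cells, against 1.15, 2.58, 6.06, 3.82 and 0.175% in the other epithelial cells. In rectum the share and the level were lower than in the other segments, although the Muc2-rich rectal cells numbered 192 and had a median of 27391.5 UMIs.

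**Figure D5:**
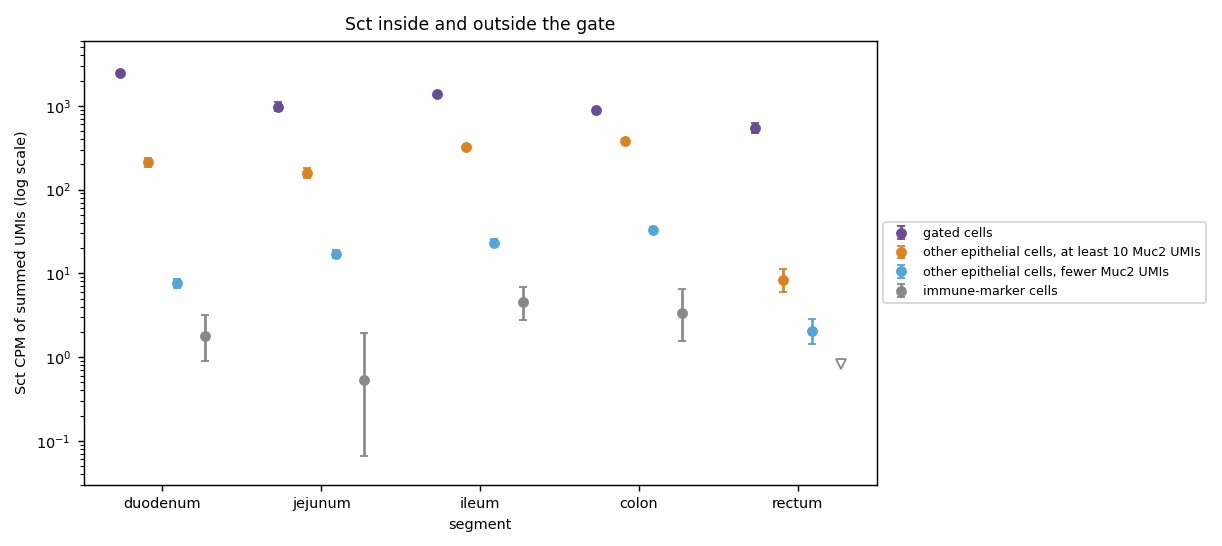
Sct level by segment in gated cells, in epithelial cells outside the gate with at least 10 or fewer than 10 Muc2 UMIs, and in immune-marker cells, as CPM on a log axis with 95% exact Poisson intervals. The open triangle is the upper limit for rectal immune-marker cells, which had no Sct UMI. The gated cells are highest in every segment, and the Muc2-rich cells lie between them and the other epithelial cells.

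Of all Sct UMIs in kept cells, 52.2% lay in the Muc2-rich cells outside the gate and 33.5% in gated cells. In ileum and colon the shares in Muc2-rich cells were 55.0 and 68.3%. Among ungated cells, 12, 13, 107, 113 and 0 had at least 10 Sct UMIs, and 229 of these 245 were Muc2-rich while 219 had no Chga or Chgb UMI. Of the hormones counted in them, the 866 Muc2-rich cells had 8261 UMIs of Sct, against 120 of Gcg, 74 of Tac1, 11 of Sst and 9 each of Ghrl and Gip. In rectum they had more Tac1 than Sct, with 66 against 42 UMIs. Cck, Nts, Pyy and Insl5 were not summed in this class, and a Muc2-rich colonic cell outside the gate had 79 Nts and 25 Pyy UMIs.

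Tac1 outside the gate was found mainly in rectum. Of 819 rectal epithelial cells outside the gate, 168 had a Tac1 UMI (20.5%), against 1 of 709 immune-marker cells there (0.141%), with median depths of 30158 and 3999 UMIs. In the other segments 12, 1, 9 and 13 such epithelial cells had a UMI. The rectal counts were low, 365 UMIs in all with at most 12 in a cell and a single UMI in 98 of the 168 cells. Rectal epithelial cells with and without a Tac1 UMI had median depths of 36521 and 28437 UMIs. Mki67, a gene of dividing cells, had 171 CPM in the cells with Tac1 and 107 CPM in those without, and Tph1 had 2 UMIs in the cells with Tac1. After thinning to 2000 UMIs, 2.55% of rectal epithelial cells and 0% of immune-marker cells kept a Tac1 UMI.

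The chromogranin gate also missed cells rich in hormones. Outside it, 16 cells had at least 10 UMIs of a hormone other than Sct. A colonic cell had 756 Gcg and 131 Pyy UMIs without a UMI of Chga or Chgb, and 2 others had 149 and 157 of Gcg with 62 and 92 of Pyy, and 1 chromogranin UMI each. These 3 cells had 2, 3 and 5 UMIs of Neurod1. A jejunal cell had 253 Sst UMIs among 789 in all, and another had 99 of Gcg with 143 of Ghrl. A colonic cell with 234 Sct, 35 Ghrl and 18 Pyy UMIs had no chromogranin UMI either.

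Other gut peptides were uneven between segments, and the receptors of the hormones were sparse. The 20 other peptide genes summed to 138, 423, 2864, 849 and 2505 CPM in gated cells, where 11 of them had no UMI. In other epithelial cells they summed to 803 to 3947 CPM. Most of the ileal sum was Guca2a and Guca2b, with 1301 and 2231 UMIs in the ileal gated cells that did not hold Tac1. Those cells include the 24 ileal cells without Neurod1. The receptor genes summed to 34.4 to 106 CPM in gated cells. Ppy, which encodes pancreatic polypeptide and neighbours Pyy on the chromosome, had 769 UMIs in a single rectal gated cell and 0 elsewhere in the gate. That cell's Ppy made up most of the rectal sum of the other peptides. Of 23 receptor genes for these hormones, 14 had no UMI in gated cells. Sstr1 and Sstr5, somatostatin receptors, had 97 and 36 UMIs in gated cells, and Gipr had 29, in 24 cells. Glp1r, the receptor of glucagon-like peptide 1, had 42 UMIs in gated cells and 96 in immune-marker cells, of which 60 were duodenal. Glp2r, that of glucagon-like peptide 2, had 49 in mesenchymal-marker cells and 0 in gated cells. Npy1r, a receptor for peptide YY and its relatives, had 60 UMIs in gated cells and 391 in other epithelial cells, of which 385 were rectal. Rxfp4, the Insl5 receptor, had 5 UMIs, all in colonic gated cells, and 2 in ileal epithelial cells.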

How the data were processed

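The deposited matrices hold raw UMI counts per gene and barcode, whole numbers without normalization, per the file headers and values. Of the tools, cellranger 7.2.0 is named by the matrix headers, but Cell Ranger 4.0.0, Seurat (no version) and the mm10 build by the submitters' processing notes. The barcodes are those the authors kept, by steps not given in the sources used here. Spatial data named in the design text were not analysed here.

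From these counts, in Python 3.11.15, 12255 of 16535 barcodes passed a minimum of 300 genes and a maximum of 20% mitochondrial UMIs. Scrublet (scanpy 1.11.5) then gave each barcode a doublet score, library by library. Its own threshold marked 27 barcodes, too few to use, so 333 barcodes with the top scores were removed instead, at a rate of 0.8% per 1000 barcodes. The remaining 11922 cells held 210176116 of 250629913 UMIs.

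Immune-marker cells had a Ptprc UMI and no Epcam UMI, and other epithelial cells an Epcam UMI and no Ptprc UMI. Mesenchymal-marker cells had neither of these but at least 5 UMIs of Col1a1, Col1a2, Col3a1 and Dcn together. All 3 classes were ungated. Levels are CPM (UMIs of a gene as a share of all UMIs summed, scaled to an equal total) of summed counts. Shares have exact Clopper-Pearson and levels exact Poisson intervals at 95%. Both cover counting error only, and depth per library limits what a count of 0 shows. The Tac1 contrast used edgeR 4.0.16 in R 4.3.3 with TMM factors and filterByExpr, and DESeq2 1.42.0 as an alternative. The edgeR test and the gap rule were tested on simulated data.

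Named genes were the 10 hormones, the 5 widest gaps a direction, the 10 largest called changes a direction, and the 5 genes most like each hormone by Pearson's r among genes with a UMI in at least 10 gated cells, without mitochondrial, ribosomal, immunoglobulin, T cell receptor and unnamed genes. List genes were counted by list, in 18 lists, and some were also named with their values after these were seen. Values of some genes are not reported here. The hormones, lists and alternatives were chosen with earlier results of these data known. Alternatives were the gate (3, 10 or 20 UMIs), holding (1 or 10 UMIs, or a share of the cell), the mitochondrial limit, doublets put back, thinning, gap fold and minimum, filters, DESeq2, the library term and each library left out. Positions are those of GRCm38.p6 in RefSeq, the assembly behind mm10.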

Additional observations from a re-analysis of the deposited data

Results flagged for a closer look

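Barcodes that passed the chromogranin gate but failed the filter on genes and mitochondrial UMIs entered no comparison, and 8 of the hormones had more than 3 UMIs in them. These 24 barcodes held 1136 UMIs of Gip, in 2 duodenal barcodes, where the kept gated cells of duodenum had 7. They also held 1085 UMIs of Gcg, in a single ileal barcode that had 384 of the 385 Pyy UMIs as well, where the kept gated cells of ileum had 422 Gcg UMIs. The other hormones came to 606 UMIs of Sct, 201 of Sst, 173 of Cck, 99 of Ghrl and 91 of Tac1. Nts and Insl5 did not pass 3 UMIs. Mitochondrial shares were 20.1 and 22.9% in the Gip barcodes and 21.0% in the ileal Gcg barcode.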

How the results depend on the processing

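Over the alternatives, 210 hormone shares moved by less than their interval and 140 by more, as did 271 and 179 hormone levels, and 402 pair counts stayed within 1.5 times and 138 did not. The gate at 3 UMIs gave shares of 1.19% in duodenum, 1.48% in jejunum, 3.99% in ileum and 1.92% in all. At 10 UMIs they were 0.937% in ileum and 0.965% in all, and at 20 UMIs 0.774 and 0.856%. Cells with any hormone UMI, 2537 in all, were 1480 at 10% mitochondrial UMIs, 465 at 5 UMIs, 336 at 10 UMIs and 724 after thinning. With the gate at 20 UMIs only 6 of 10 hormones had the same highest segment (Gcg moved to jejunum and Sct, Nts and Tac1 to ileum). By the mean over cells 7 of 10 did (Sct and Nts moved to ileum and Ghrl to jejunum). Thinning left 19 pairs, with Cck in 9.09% of Gcg cells and Tac1 in 14.8% of Sct cells, and holding by 0.1% of a cell's UMIs gave Cck in 25% of Gcg cells.

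The 45 genes higher in small and 41 in large intestine became 132 and 127 at 2-fold, 25 and 26 at 200 UMIs, and 141 and 102 with the gate at 3 UMIs, with 83 for small intestine when doublets were put back. Leaving out 1 library gave 58 to 157 for small and 57 to 90 for large intestine. Without colon, Cck and Tac1 were called for small intestine (10.7 and 6.78-fold), without rectum Gcg and Nts for large intestine (4.36 and 14.8-fold), and without ileum Ghrl for small intestine (258-fold). Ghrl was also called for small intestine with doublets put back, and Cck with the gate at 20 UMIs.

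In the Tac1 contrast the counts of 0 higher and 1 lower became 48 and 12 with the gate at 20 UMIs, 9 and 3 at 10% mitochondrial UMIs, 166 and 199 without a filter on low counts, and 26 and 12 with DESeq2. Without cells with Ptprc or Cd79a 1 gene was higher, with the gate at 3 UMIs 3 were lower, and 0 were lower with holding at 10 or 1 UMIs or with doublets put back. The pairing of sides within a library is by design, and without that block 0 were lower. Leaving out 1 library gave 0 to 22 higher (22 without ileum and 22 without colon) and 5 to 14 lower. The change of Sct, -0.31 on the log2 scale, was 0.70 with the gate at 3 UMIs, 0.078 without the block and -0.96 to 0.21 with 1 library left out (positive without colon), past the threshold in none. The causes were not tested, and the gate at 20 UMIs and doublets put back in these comparisons were chosen after seeing the data. Contrasts for Gcg and Cck were not run. Depth limits every count of 0.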
